A study of Homo sapiens with 4 samples.

Results

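The cytosolic heat shock response genes followed here are 10 of the 20263 genes in the deposited count table: the transcription factor HSF1 and the chaperone genes HSPA1A, HSPA1B, HSPA8, HSPH1, DNAJB1, BAG3, HSP90AA1, HSP90AB1 and HSPB1. They were chosen by name, with earlier results of these data known. They are HSF1 and the best known cytosolic members of the HSP70, HSP110, HSP40, HSP90 and small chaperone families, with BAG3. Each was matched to the table by its Ensembl identifier. The cells were HCT116, an established human colon cancer line. In the 7A group they received 7A, a compound that the series title calls a neratinib derivative, and in the control group they are labelled DMSO, the usual solvent of such compounds, while the protocol describes them as grown without 7A. Both groups were kept in serum-supplemented medium, and the treatment lasted 24 h. There were 2 libraries per group, 4 in all. The series sets the groups against each other to ask what 7A does in colon cancer. No dose of 7A is named in the sources used here, and the only cells are those of 1 line. Since no label says that the replicates came from separate cultures, the p-values below reflect only how far these 4 samples differ, and that spread may be technical.

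Heat shock proteins are chaperones that hold, refold or pass on unfolded proteins. HSP70 proteins bind exposed hydrophobic stretches in a cycle driven by ATP, HSP40 proteins deliver clients and speed ATP hydrolysis, nucleotide exchange factors such as HSP110 and BAG proteins release the client, and HSP90 proteins act later on kinases, steroid receptors and other clients. When unfolded proteins accumulate, HSF1 is released from chaperones, forms trimers and binds heat shock elements, arrays of the unit GAA in alternating orientation, upstream of these genes. Many tumour cells keep this response partly active.

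The sequences before the members' RefSeq transcript starts are shown first, since heat shock elements are the known binding sites of HSF1. A match of 2 units was GAANNTTC or TTCNNGAA, and a match of 3 units was GAANNTTCNNGAA or TTCNNGAANNTTC, where N is any base. Each of the short motifs reads the same on both strands, the long ones are each other's reverse complement so that searching both covers both strands, and every 3-unit match holds 2 overlapping 2-unit matches. The window was the 250 bases before a transcript start in RefSeq on GRCh38.p14. Sequences run 5′ to 3′ on the gene's own strand, with the matches in capitals. A gene can have a GENCODE 29 transcript that starts further upstream: the HSPA8 and HSP90AA1 stretches below overlap an annotated exon, and those of DNAJB1 and HSP90AB1 lie within the annotated gene but outside its exons.
HSPA1A, chr6:31815373-31815463, plus strand: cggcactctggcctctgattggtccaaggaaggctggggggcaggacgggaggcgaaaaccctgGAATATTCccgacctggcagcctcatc
HSPA1B, chr6:31827569-31827659, plus strand: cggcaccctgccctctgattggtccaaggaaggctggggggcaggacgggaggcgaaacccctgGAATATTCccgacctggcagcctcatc
HSPA8, chr11:123062345-123062374, minus strand: gcgagcttGAAAGTTCCAGAAcgctgcggt
HSPA8, chr11:123062170-123062199, minus strand: cgggccccTTCTGGAAGGTTCtaagatagg
DNAJB1, chr19:14518422-14518507, minus strand: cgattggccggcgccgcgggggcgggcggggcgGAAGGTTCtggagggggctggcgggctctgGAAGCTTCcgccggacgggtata
HSP90AA1, chr14:102087104-102087133, minus strand: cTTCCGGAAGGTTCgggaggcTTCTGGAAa
HSP90AB1, chr6:44247763-44247862, plus strand: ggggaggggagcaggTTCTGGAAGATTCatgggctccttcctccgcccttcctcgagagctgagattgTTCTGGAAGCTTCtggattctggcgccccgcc
HSPB1, chr7:76302453-76302542, plus strand: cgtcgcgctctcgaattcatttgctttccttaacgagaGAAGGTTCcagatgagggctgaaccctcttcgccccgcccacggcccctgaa

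Of the 9 members with a window in the RefSeq promoter table, 7 held a 2-unit match, or 77.8%, against 14% of the 27305 genes in that table. A 3-unit match was found in 3 of the 9, HSPA8, HSP90AA1 and HSP90AB1, or 33.3%, against 0.557% of all genes. Counted by window, 7 of the members' 14 windows held a 2-unit match, against 11.6% of all 35116 windows. The windows of HSPH1 and BAG3 held neither, which says only that these letters are not in these 250 bases. HSPA8 and HSP90AB1 each held a pair of 3-unit matches. HSPA1A and HSPA1B each held a single 2-unit match with the same letters, beginning 106 and 105 bases before the start, and their whole windows were 93.6% identical (235 identical bases, 14 mismatched and 2 gapped). Matches lay before genes that rose with 7A and before both HSP90 members, which carried 3 units and did not pass the test below. Only these exact letters were searched, so a less exact element would be missed, and the number of units does not rank the genes. Any link between matches and rises was not tested.

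**Figure D1:**
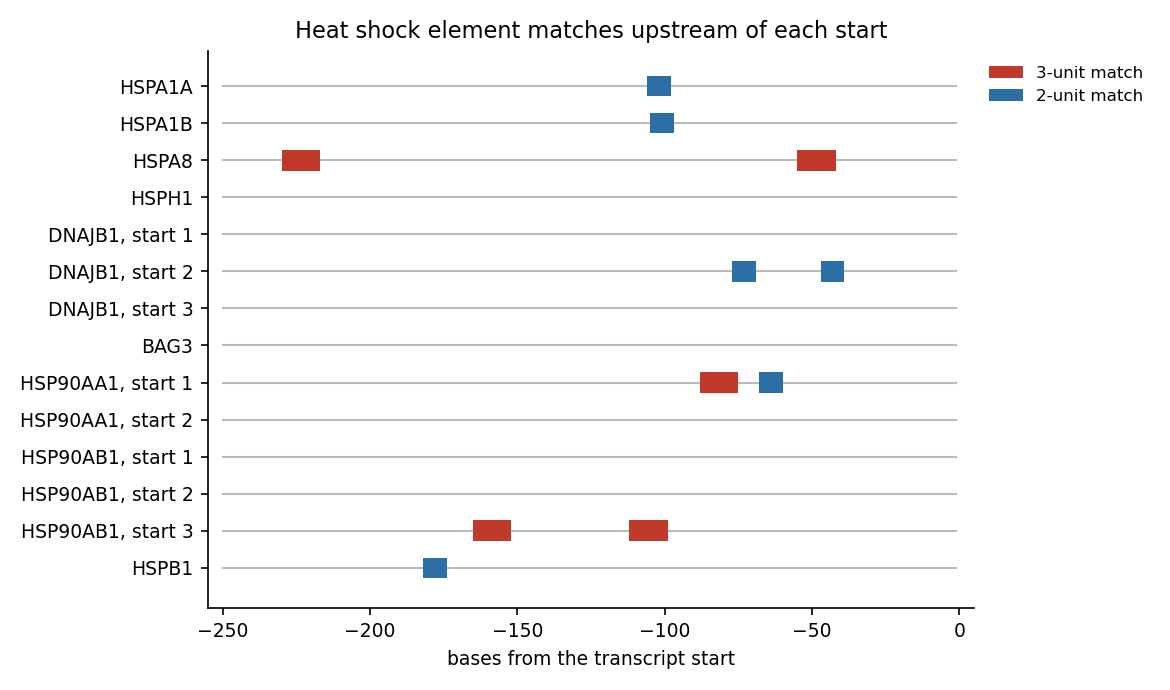
Positions of heat shock element matches in the 250 bases before each RefSeq transcript start of the 9 members in the promoter table, with the horizontal axis in bases from the start. Red blocks are 3-unit matches and blue blocks 2-unit matches outside them; HSPA8 and the third start of HSP90AB1 have a pair of red blocks each, and HSPH1 and BAG3 have none of either.

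Library totals were 49924044 and 61605005 counts in 7A replicates 1 and 2, and 31120459 and 29769568 in DMSO replicates 1 and 2. Levels are given as CPM, the counts divided by the TMM-scaled library total in units of 1000000, and a fold change is 7A over DMSO. The words rose and fell are kept for genes with an adjusted p under 0.05 in edgeR's quasi-likelihood test over 14026 genes. Each mean is over 2 libraries with its SD. The epithelial markers EPCAM, KRT8, KRT18, KRT19 and CDH1 were above 1 CPM in every library, and VIL1 was under 10 counts in each. Their summed level was 6890 and 7230 CPM with 7A and 4110 and 3650 CPM with DMSO. Its largest single part was KRT8, at 3526 and 3810 CPM with 7A and 1751 and 1568 CPM with DMSO. CDH1 did not go the same way, at 58.8 and 64.1 CPM with 7A and 76.8 and 67.7 CPM with DMSO. Its log2 fold change of -0.23 ± 0.14 did not pass (edgeR adjusted p 0.198). Of 6 fibroblast markers, COL1A1 alone reached 1 CPM in every library, with a summed level of 33.7 and 38.6 CPM with 7A and 57.7 and 54.8 CPM with DMSO, while COL1A2, DCN and LUM were at 0. Of 6 leukocyte markers, CD68 alone did so, and the list summed to 56.2 and 91.8 CPM with 7A and 37.3 and 31.5 CPM with DMSO, with CD3E at 0 and PTPRC at or near 0. Of 6 erythroid markers, HBA1, HBA2 and HBG2 did so, with a sum between 16.2 and 18.1 CPM in the 4 libraries and HBB at 0. The part of the keratin, EPCAM and CD68 shifts in the results below was not tested. In bulk RNA, a change in the number of cells of a state and a change in RNA per cell cannot be told apart.

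The heat shock genes divided into 8 that rose with 7A and the 2 cytosolic HSP90 genes, which did not pass the test. Of the 10, 8 rose and 0 fell by edgeR, while 48.4% of all tested genes were called, 23.9% higher and 24.6% lower. The count of falls was also 0 at an unadjusted p under 0.05, by DESeq2 and by limma-voom. These members are well expressed, and of the 4254 genes that averaged 50 CPM or more, 43.3% rose. In 6 members the rise was at least 1 on the log2 scale, which 7.11% of all tested genes reached. The median log2 fold change of the 10 was 1.28, against -0.03 over all tested genes. Both 7A libraries lay above both DMSO libraries in 8 members, as they did in 38.2% of all tested genes. Together the 10 genes took 1.05% of all counts in each 7A library, against 0.59% and 0.73% in the DMSO libraries.

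**Figure D2:**
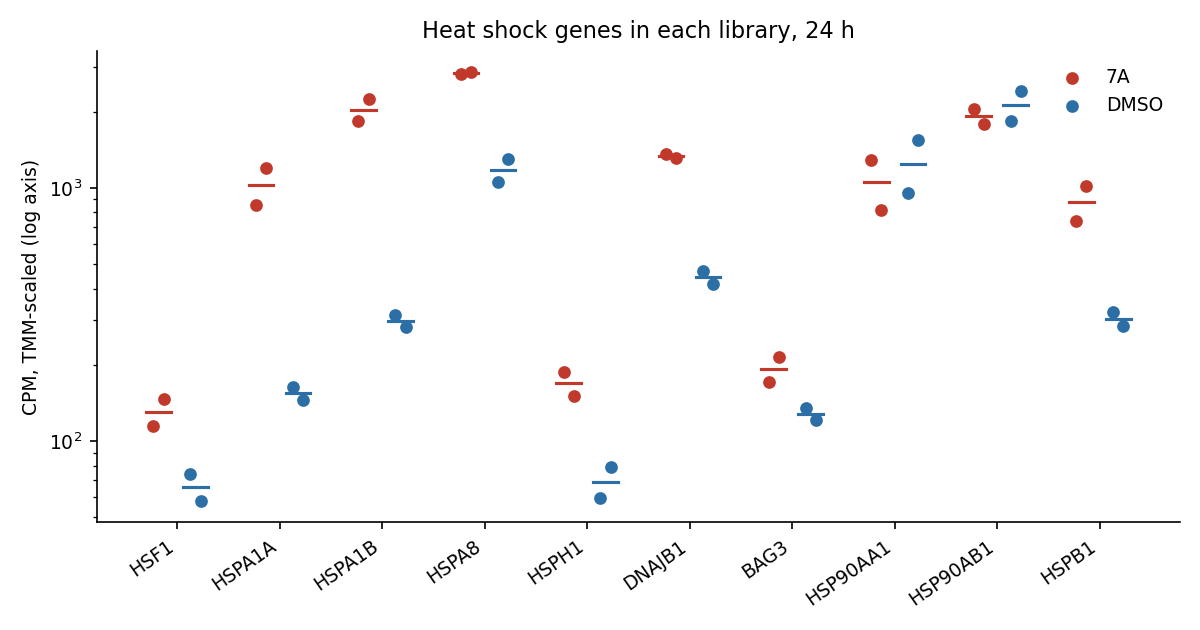
Level of each of the 10 heat shock genes in every library, in TMM-scaled CPM on a log10 axis, with 7A left of DMSO; each point is 1 library. Both 7A points lie above both DMSO points for 8 genes, by the widest margin for HSPA1A and HSPA1B, and the points of HSP90AA1 and HSP90AB1 overlap.

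HSF1 (ENSG00000185122, chromosome 8, plus strand), the main transcription factor of the response, had 115 and 147 CPM in the 7A libraries, against 74.0 and 58.2 CPM in the DMSO libraries. Both 7A values stood above both DMSO values, and the DMSO values lay closer together in absolute terms. The rise was 0.99 ± 0.18 (SE) on the log2 scale, 1.98-fold, with a 95% interval of 0.56 to 1.41 and an edgeR adjusted p of 0.00508, which placed it at rank 1142 of the 14026 tested genes by size of increase. HSF1 activity is set mainly by release from chaperones, trimer formation and phosphorylation, none of which a transcript level measures. HSF1 overlaps DGAT1 on the opposite strand, and no source used here says whether the counting used strand. DGAT1, a triglyceride synthesis gene, had 78.5 and 89.9 CPM with 7A and 72.2 and 64.0 CPM with DMSO, a log2 fold change of 0.31 ± 0.14 that did not pass (edgeR adjusted p 0.111).

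The largest rises among the members were those of the stress-inducible HSP70 genes HSPA1A and HSPA1B. They are near-identical copies that lie near each other on chromosome 6, HSPA1A (ENSG00000204389) at 31815464 to 31817946 and HSPA1B (ENSG00000204388) at 31827735 to 31830255 on the plus strand of GRCh38, and each has 1 exon and no intron. HSPA1A had 855 and 1196 CPM in the 7A libraries, against 164 and 145 CPM in the DMSO libraries. HSPA1B had 1832 and 2236 CPM with 7A, against 315 and 283 CPM with DMSO. In both genes the lower 7A library was several times the higher DMSO library, and 7A replicate 2 was the higher of the 7A pair. HSPA1A rose by 2.73 ± 0.19 (log2 fold change ± SE, 95% interval 2.27 to 3.19, edgeR adjusted p 0.000556) and HSPA1B by 2.77 ± 0.16 (2.39 to 3.14, edgeR adjusted p 0.000471). These were 6.63-fold and 6.8-fold, at ranks 46 and 45 of the 14026 tested genes.

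How much of this belongs to either copy depends on the counting. Of the 100-base windows along the longest annotated transcript, 69.9% of those of HSPA1A and 72.7% of those of HSPA1B also occur in another gene's transcript, which for HSPA1A was HSPA1B in every case. How the counter treated shared reads is not stated in the sources used here. The sum of both genes does not depend on how reads were split between them. The level of the sum would still depend on whether shared reads were dropped or counted for both genes. It was 2687 and 3432 CPM in the 7A libraries, against 479 and 428 CPM in the DMSO libraries, and rose by 2.75 ± 0.17 (95% interval 2.35 to 3.16, 6.75-fold, edgeR adjusted p 0.000463). HSPA1B made up 68.2% and 65.2% of the sum with 7A, against 65.8% and 66.1% with DMSO, so the split between the copies was close to the same in all 4 libraries.

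HSPA8 (ENSG00000109971, chromosome 11, 123057489 to 123063230, minus strand), the constitutive HSP70 that serves unstressed cells, rose as well but by less. It had 2802 and 2860 CPM in the 7A libraries, against 1053 and 1297 CPM in the DMSO libraries. The 7A values lay within 0.03 of each other on the log2 scale and far above both DMSO values. The rise was 1.27 ± 0.15, 2.41-fold (edgeR adjusted p 0.00117). Within a library, the counts of HSPA1A and HSPA1B together were 0.959 and 1.20 times those of HSPA8 with 7A, against 0.455 and 0.330 times with DMSO. The ratio does not depend on how libraries were scaled to each other, though its level depends on how shared reads were counted. It differed by 1.47 on the log2 scale, with no overlap between groups, and the two-sided exact permutation p was 0.333, the smallest that 2 against 2 libraries can give. The ratio is not corrected for GC content. When each library was corrected for GC content and gene length, the summed pair rose by 2.48 and HSPA8 by 1.45, closer together than the 2.75 and 1.27 without it. Per length of merged exons, the inducible pair stood at 1.85 and 2.32 times HSPA8 with 7A, against 0.88 and 0.638 times with DMSO. This level rests on the 4849 bases of merged HSPA8 exons. The longest HSPA8 transcript has 2463 bases, close to the 2483 of HSPA1A and 2521 of HSPA1B. By transcript length the ratio would thus lie near that of the counts.

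The partners that drive the HSP70 cycle rose by different amounts. DNAJB1 (ENSG00000132002, chromosome 19, 14514770 to 14529770, minus strand), the stress-inducible HSP40 that hands clients to HSP70, had 1355 and 1311 CPM in the 7A libraries, against 468 and 418 CPM in the DMSO libraries. It was among the tightest members within groups, and the groups were far apart. Its rise was 1.59 ± 0.13, 3.01-fold (edgeR adjusted p 0.000616). DNAJB1 overlaps TECR, a fatty acid elongation gene on the opposite strand, which had 146 and 164 CPM with 7A and 120 and 111 CPM with DMSO, well below DNAJB1 in each library. TECR rose by 0.42 ± 0.13 (edgeR adjusted p 0.0296), a call lost without 7A replicate 2 (0.0886), DMSO replicate 1 (0.0873) or DMSO replicate 2 (0.178), with upper-quartile scaling (0.0861) and with library totals alone (0.15, 0.318).

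HSPH1 (ENSG00000120694, chromosome 13, 31134974 to 31162388, minus strand), which encodes an HSP110 exchange factor that releases clients from HSP70, had 188 and 151 CPM in the 7A libraries, against 59.5 and 78.7 CPM in the DMSO libraries. Both 7A libraries were higher, with replicate 1 above replicate 2, the reverse of the order in HSF1 and the inducible pair. The rise was 1.29 ± 0.18, 2.45-fold (edgeR adjusted p 0.00212). Correcting each library for GC content and gene length raised it to 1.83; HSPH1 is the member with the longest transcript, 5191 bases, and the lowest GC content, 40%.

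BAG3 (ENSG00000151929, chromosome 10, 119651370 to 119677819, plus strand), an exchange factor that links HSP70 to small heat shock proteins and to selective autophagy, changed least among the 8. It had 171 and 214 CPM in the 7A libraries, against 135 and 121 CPM in the DMSO libraries. The groups did not overlap, but the lower 7A value was not far above the higher DMSO value. The rise was 0.59 ± 0.15, 1.51-fold, with a 95% interval of 0.25 to 0.94 (edgeR adjusted p 0.0146). The call was lost without 7A replicate 2 (log2 fold change 0.42, edgeR adjusted p 0.0589), without DMSO replicate 2 (0.52, 0.0937) and with library totals alone in place of TMM (0.32, 0.097).

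The HSP90 genes gave no such separation. HSP90AA1 (ENSG00000080824, chromosome 14, 102080738 to 102139699, minus strand), the inducible cytosolic HSP90, had 1285 and 818 CPM in the 7A libraries, against 952 and 1541 CPM in the DMSO libraries. The groups overlapped, with the lowest of the 4 values in 7A replicate 2 and the highest in DMSO replicate 2. The log2 fold change was -0.25 ± 0.34, with a 95% interval of -1.14 to 0.65 (edgeR adjusted p 0.579). That interval leaves room for a rise of about the size seen in BAG3 and for a fall larger than that. The replicates of HSP90AA1 differed by more than those of any other member, by 0.65 on the log2 scale between the 7A libraries and by 0.7 between the DMSO libraries.

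HSP90AB1 (ENSG00000096384, chromosome 6, 44246166 to 44253888, plus strand), the constitutive cytosolic HSP90, had 2044 and 1782 CPM in the 7A libraries, against 1840 and 2421 CPM in the DMSO libraries. These values also overlapped. The log2 fold change was -0.16 ± 0.17, with a 95% interval of -0.56 to 0.25 (edgeR adjusted p 0.478). That interval lies below the intervals of HSPA1A, HSPA1B, HSPA8, HSPH1, DNAJB1 and HSPB1 and below that of HSF1. The ratio of HSP90AA1 to HSP90AB1 counts was 0.628 and 0.459 with 7A, against 0.517 and 0.637 with DMSO (log2 difference -0.09, two-sided exact permutation p 0.667). WDR20, which overlaps HSP90AA1 on the opposite strand, was low beside it, at 11.0 and 8.15 CPM with 7A and 22.6 and 19.9 CPM with DMSO. It fell by 1.15 ± 0.20 on the log2 scale (edgeR adjusted p 0.00367).

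HSPB1 (ENSG00000106211, chromosome 7, 76302544 to 76304295, plus strand) encodes HSP27, a small heat shock protein that holds unfolded proteins without using ATP. It had 740 and 1015 CPM in the 7A libraries, against 323 and 285 CPM in the DMSO libraries. The groups were well apart, and 7A replicate 2 was again the higher. The rise was 1.53 ± 0.18, 2.89-fold (edgeR adjusted p 0.00122). With the correction for GC content and length it was 1.17; HSPB1 has the shortest transcript of the members, 909 bases, and the highest GC content, 64.5%.

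**Figure D3:**
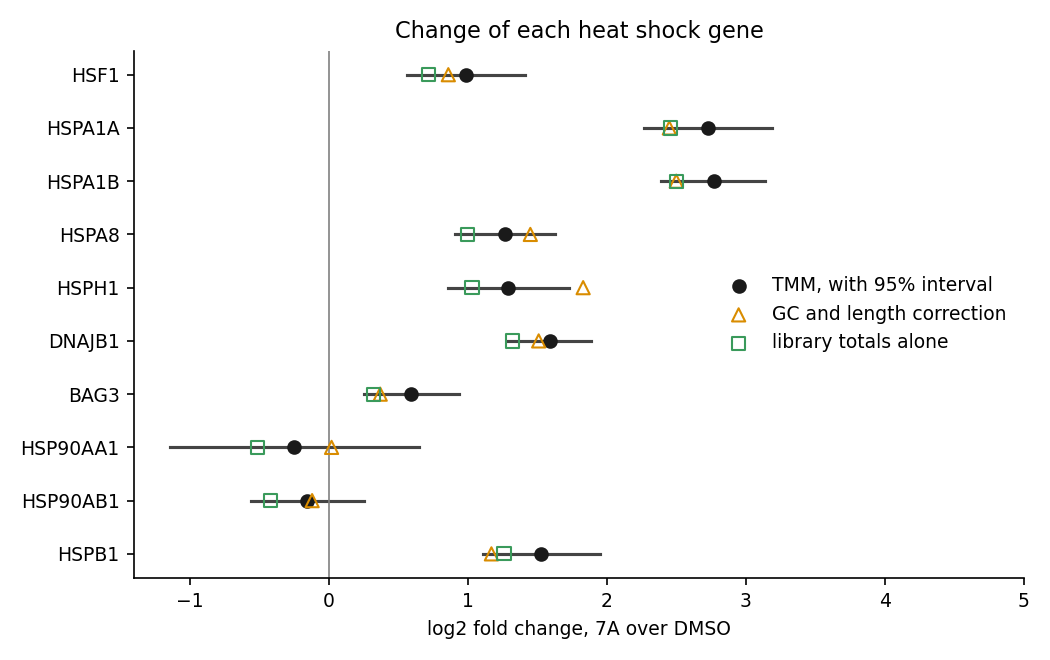
Log2 fold change of each heat shock gene, 7A over DMSO, on the horizontal axis; black points are the TMM-scaled edgeR estimates with 95% intervals, orange triangles the estimates after correction for GC content and length, and green squares those with library totals alone. The intervals of HSP90AA1 and HSP90AB1 include 0, and under all 3 scalings the other 8 genes stay above 0, from 0.32 for BAG3 with library totals to 2.77 for HSPA1B with TMM.

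The scaling between libraries sets the height of all these values together, while the GC and length correction moves each gene by its own amount, some up and some down. With library totals alone the median over all tested genes was -0.29 and that of the 10 members 1.02, and 13.9% of tested genes rose. After the GC and length correction the medians were 0.09 and 1.31, and 30.6% of tested genes rose. HSP90AA1 then stood at 0.02 and HSP90AB1 at -0.12, and neither passed the test. The other 8 members rose after this correction too.

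The order of the transcript levels changed between the groups. On a scale per length of exon (TPM, scaled to the same total in every library), HSP90AB1 was highest in the DMSO libraries at 2555 ± 475 TPM. Next came HSPA8 at 866 ± 121 TPM and HSP90AA1 at 848 ± 278 TPM, which did not differ beyond their spread, and then HSPB1 at 665 ± 63.4 TPM, within the spread of HSP90AA1. DNAJB1 at 431 ± 36.9 TPM and HSPA1B at 424 ± 35.6 TPM were also within each other's spread. HSPA1A at 223 ± 20.5 TPM, BAG3 at 166 ± 13.9 TPM, HSF1 at 44.5 ± 7.86 TPM and HSPH1 at 29.4 ± 5.6 TPM were lowest.

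In the 7A libraries HSPA1B led the order at 2401 ± 202 TPM, followed by HSP90AB1 at 1923 ± 294 TPM, HSPA8 at 1743 ± 73.6 TPM and HSPB1 at 1594 ± 265 TPM. Neighbours from HSPA1B down to HSPA1A at 1225 ± 220 TPM did not differ beyond their spread. DNAJB1 at 1085 ± 86.9 TPM was within the spread of HSPA1A, and HSP90AA1 followed at 604 ± 222 TPM. BAG3 at 209 ± 21.6 TPM, HSF1 at 73.3 ± 8.64 TPM and HSPH1 at 60.6 ± 12.7 TPM were again lowest, in the same order as with DMSO, and here HSF1 and HSPH1 were within each other's spread. HSPA1A and HSPA1B each depend on the split of shared reads, so their separate places in this order are uncertain. The order in both groups also rests on the length of all annotated exons merged, 4849 bases in HSPA8 and 1634 in HSPB1. Their longest transcripts have 2463 and 909 bases, while in HSPA1A and HSPA1B the merged exons are as long as the transcript. By transcript length HSPA8 and HSPB1 would stand higher beside HSPA1B, so its lead may not hold on that scale.

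The 10 genes together made up 10900 and 10940 TPM in the 7A libraries, against 5756 and 6748 TPM in the DMSO libraries. HSPA1A and HSPA1B held 30.5% and 35.9% of this pool with 7A, against 11.9% and 9% with DMSO. The HSP90 genes held 26.5% and 19.8% with 7A, against 49.9% and 58.3% with DMSO. HSPA8 held 16.5% and 15.5% with 7A, against 13.6% and 14.1% with DMSO. The share of the pair depends on how shared reads were counted, and the size of each share rests on merged exon lengths. These exceed the longest transcript in HSPA8, HSPB1, DNAJB1 and HSP90AA1 but not in HSPA1A and HSPA1B, so by transcript length the share of the pair would be smaller. The inducible HSP70 pair thus took up a larger share and the HSP90 pair a smaller share of the pool in both 7A libraries than in either DMSO library, while the share of HSPA8 moved by a few percentage points.

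**Figure D4:**
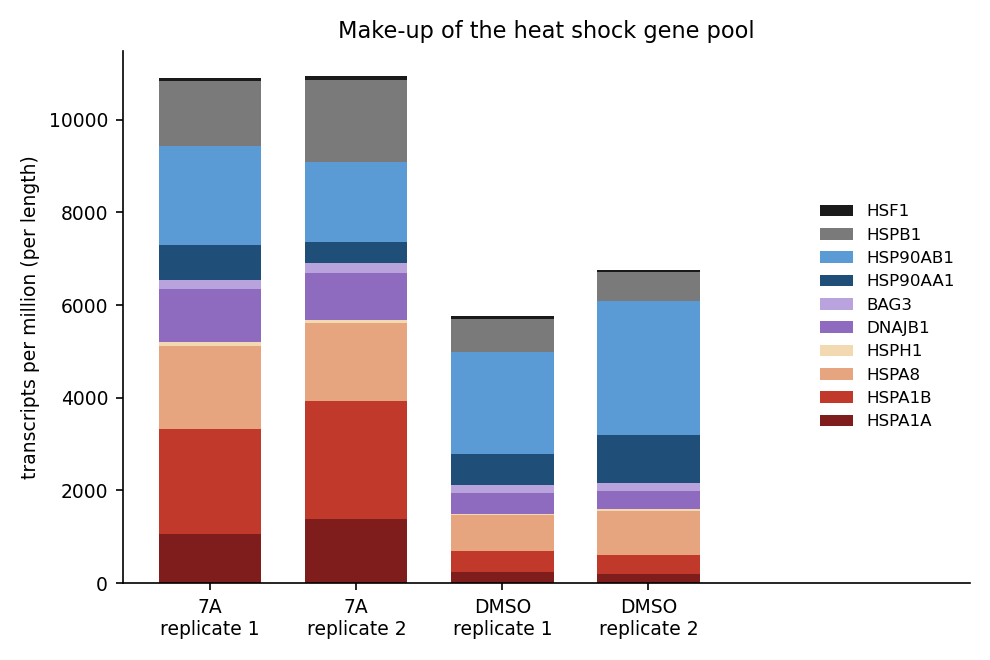
Stacked bars of the 10 heat shock genes in each library in TPM, a level per length of merged exons, with the 7A libraries left of the DMSO libraries. The bars reach 10900 and 10940 with 7A and 5756 and 6748 with DMSO; the red HSPA1A and HSPA1B blocks are 30.5% and 35.9% of the 7A bars and 11.9% and 9% of the DMSO bars.

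The members did not all vary between replicates in the same direction. HSF1, HSPA1A, HSPA1B, HSPB1 and BAG3 were higher in 7A replicate 2 than in 7A replicate 1, by 0.29 to 0.48 on the log2 scale, and lower in DMSO replicate 2 than in DMSO replicate 1, by 0.16 to 0.35. HSPH1, HSP90AA1 and HSP90AB1 did the opposite in both groups: they were lower in 7A replicate 2 and higher in DMSO replicate 2. HSPA8 and DNAJB1 followed neither pattern: replicate 2 minus replicate 1 was 0.03 with 7A and 0.30 with DMSO for HSPA8, and -0.05 with 7A and -0.16 with DMSO for DNAJB1, on the log2 scale. GC content was 56.9% to 64.5% in the first 5 genes and 40% to 48.1% in the other 3, a range that also holds HSPA8 at 47%, and DNAJB1 stood between at 53%. The part of GC content in these replicate differences was not tested.

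The remaining genes of the response were counted in 9 lists of relatives and partners. Together 34 of their 70 tested genes rose and 10 fell, or 48.6% and 14.3%. Of all tested genes 23.9% rose and 24.6% fell, and of those that averaged 50 CPM or more 43.3% rose. These shares are the background for each list below. With library totals alone the lists held 23 rises and 13 falls, and without DMSO replicate 2 they held 22 and 2. Without 7A replicate 2 the number that fell was 2, and after the GC and length correction it was 6. Of the rises, 21 were called in the TMM fit and in all 13 alternative fits, and of the falls 1 was, HSPA2.

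HSP90 co-chaperones, which load clients on HSP90 or drive its ATP cycle, had the highest median of the 9 lists, 0.93, and 12 of 15 rose while 1 fell. Neither cytosolic HSP90 gene passed. The phosphatase PPP5C had 185 and 194 CPM with 7A, against 75.8 and 78.3 CPM with DMSO, and rose by 1.30 ± 0.12 (edgeR adjusted p 0.00071). CHORDC1, which binds HSP90 and is itself heat-inducible, had 135 and 130 CPM with 7A, against 57.2 and 54.9 CPM with DMSO, and rose by 1.24 ± 0.12. FKBP4, an immunophilin of steroid receptor complexes, had 432 and 450 CPM with 7A, against 205 and 194 CPM with DMSO, and rose by 1.15 ± 0.12. Replicates of these 3 genes lay close together and the groups were far apart. Of the 12 rises, 10 were called in all 13 alternatives. FKBP5, another immunophilin and a glucocorticoid target, had 41.4 and 33.2 CPM with 7A, against 48.9 and 54.0 CPM with DMSO (-0.46 ± 0.16, edgeR adjusted p 0.0488). That call was lost in 8 of 13 alternatives, among them those without 7A replicate 2 (0.162), DMSO replicate 1 (0.115) and DMSO replicate 2 (0.232), and after the GC and length correction its log2 fold change was 0.19.

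No rise was called among the other HSP70 and HSP110 genes. Of 7 tested, 0 rose and 4 fell by edgeR, with 0 rises also at an unadjusted p under 0.05, by DESeq2 and by limma-voom. The median was -0.67, and -0.04 after the GC and length correction. HSPA2, a testis-enriched HSP70, had 0.692 and 1.20 CPM with 7A, against 4.37 and 4.41 CPM with DMSO, and fell by 2.21 ± 0.31 on the log2 scale (edgeR adjusted p 0.0018). HSPA12B, a distant HSP70 relative, had 0.454 and 0.416 CPM with 7A, against 1.29 and 1.44 CPM with DMSO, and fell by 1.64 ± 0.36 (edgeR adjusted p 0.0088). Both genes are expressed at a low level. HSPA12B lost the call without 7A replicate 2 (0.0526) or DMSO replicate 2 (0.0591). HSPA12A, its paralog, and HSPA4L, an HSP110 relative, each fell by 0.67 on the log2 scale. After the GC and length correction their fold changes were -0.13 and -0.04, and neither passed. HSPA12A also lost its call without DMSO replicate 2 (0.0718), and HSPA4L without 7A replicate 2 (0.118) or DMSO replicate 2 (0.148).

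HSPA6, a strictly heat-inducible HSP70, had 3 and 4 counts in the 7A libraries and 0 in both DMSO libraries. A count of 0 allows up to 3 counts, so no difference was detectable at this depth and no fold is given.

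Among 12 other cytosolic HSP40 genes, 5 rose and 0 fell by edgeR (median 0.44), and 0 fell at an unadjusted p under 0.05, by DESeq2 and by limma-voom. For comparison, 23.9% of all tested genes rose, and 43.3% of those that averaged 50 CPM or more. With library totals alone 2 rose and 1 fell, and the median was 0.17. DNAJB4, an inducible relative of DNAJB1, had 98.1 and 103 CPM with 7A, against 60.0 and 55.8 CPM with DMSO, and rose by 0.79 ± 0.13 (edgeR adjusted p 0.00297). DNAJC9, a nuclear J-protein that binds histones, had 61.95 and 55.8 CPM with 7A, against 33.9 and 36.7 CPM with DMSO, and rose by 0.74 ± 0.14. The groups did not overlap in either gene. DNAJB6, which suppresses protein aggregation, rose by 0.47 ± 0.12, but not without DMSO replicate 1 (edgeR adjusted p 0.0843) or DMSO replicate 2 (0.115), nor with library totals alone (log2 fold change 0.20, 0.196). DNAJC2, which works at the ribosome, rose by 0.55 ± 0.17, a call lost without each replicate in turn (0.0554 to 0.19), with upper-quartile scaling (0.0651) and with library totals alone (0.29, 0.219). The list counted 3 rises with upper-quartile scaling and without 7A replicate 1 or DMSO replicate 2, and 2 without DMSO replicate 1.

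Among 9 HSP70 co-chaperones, 4 rose and 1 fell (median 0.41). Beside this, 23.9% of all tested genes rose, and 43.3% of those that averaged 50 CPM or more. HSPBP1, an exchange factor of HSP70, had 77.2 and 81.2 CPM with 7A, against 29.8 and 22.6 CPM with DMSO, and rose by 1.60 ± 0.17 (edgeR adjusted p 0.000945). Its groups were well separated, and it was the only rise of this list called in all 13 alternatives. BAG6, which guards tail-anchored and mislocalized proteins, rose by 0.59 ± 0.13, but it did not pass without DMSO replicate 2 (edgeR adjusted p 0.062) or with library totals alone (log2 fold change 0.33, 0.0561). HIKESHI, the carrier that brings HSP70 into the nucleus after heat shock, rose by 0.62 ± 0.16, a call lost without 7A replicate 1 (0.0615), DMSO replicate 1 (0.103) or DMSO replicate 2 (0.0565) and with library totals alone (0.36, 0.105). BAG5 fell by 0.69 ± 0.17 on the log2 scale, a call lost without 7A replicate 2 (0.0618) or DMSO replicate 2 (0.0857). The list held 2 rises without 7A replicate 1 or DMSO replicate 1, and 1 without DMSO replicate 2 or with library totals alone.

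Of the other heat shock factors and HSF1-binding proteins, 4 were tested, of which 2 rose and 1 fell (median 0.17, and -0.10 with library totals alone). HSBP1, which binds HSF1 trimers and limits their activity, had 324 and 329 CPM with 7A, against 221.5 and 204 CPM with DMSO, and rose by 0.62 ± 0.12 (edgeR adjusted p 0.00504), a call lost without DMSO replicate 2 (0.0503). Its relative HSBP1L1 had 25.3 and 24.0 CPM with 7A, against 14.0 and 13.7 CPM with DMSO, and rose by 0.84 ± 0.15. HSF2, a factor that pairs with HSF1, had 21.4 and 18.4 CPM with 7A, against 30.02 and 30.03 CPM with DMSO, the opposite order to HSF1. It fell by 0.60 ± 0.15 on the log2 scale (edgeR adjusted p 0.0166), a call lost without 7A replicate 2 (0.064), DMSO replicate 1 (0.0791) or DMSO replicate 2 (0.0885). HSF4 had 10.6 and 11.2 CPM with 7A, against 14.5 and 12.1 CPM with DMSO, and did not pass (-0.29 ± 0.18, edgeR adjusted p 0.218), but after the GC and length correction it was called lower (-0.51, edgeR adjusted p 0.0279).

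Of 7 heat-inducible genes outside the chaperone families, 4 rose (median 0.82). ZFAND2A, a proteasome-associated zinc finger gene induced by heat and arsenite, had 16.7 and 20.4 CPM with 7A, against 6.27 and 8.02 CPM with DMSO, and rose by 1.38 ± 0.21 (edgeR adjusted p 0.00216). SERPINH1, the collagen chaperone HSP47, had 132 and 158 CPM with 7A, against 56.6 and 58.3 CPM with DMSO, and rose by 1.34 ± 0.14. MRPL18, a mitochondrial ribosomal protein with a heat-induced cytosolic form, rose by 0.92 ± 0.12. Most other small heat shock proteins were too scarce to test. Of the 8 matched, 2 were tested, HSPB8 at 10.8 and 12.4 CPM with 7A and 8.71 and 10.8 CPM with DMSO, and HSPB6 below 1 CPM in every library, and 0 were called by edgeR, at an unadjusted p under 0.05, by DESeq2 or by limma-voom (log2 fold change 0.25 for each, with a list median of -0.01 by library totals alone).

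The counterparts in other compartments had lower medians than the members. Of 7 mitochondrial genes 4 rose and 0 fell by edgeR (median 0.44), and 0 fell at an unadjusted p under 0.05, by DESeq2 and by limma-voom. The share of all tested genes that rose was 23.9%, and 30.6% after the GC and length correction. HSPE1, the co-chaperonin HSP10, had 305 and 321 CPM with 7A, against 107 and 111 CPM with DMSO, and rose by 1.53 ± 0.12 (edgeR adjusted p 0.000556), close to the value of HSPB1. TRAP1, the mitochondrial HSP90, had 494 and 616 CPM with 7A, against 260 and 221 CPM with DMSO, and rose by 1.21 ± 0.16 (edgeR adjusted p 0.0014). DNAJA3 and GRPEL1, partners of mitochondrial HSP70, rose by 0.78 ± 0.23 and 0.44 ± 0.14. DNAJA3 lost its call without 7A replicate 1 (0.102), 7A replicate 2 (0.175) or DMSO replicate 2 (0.103), and GRPEL1 without 7A replicate 1 (0.0814), DMSO replicate 1 (0.143) or DMSO replicate 2 (0.169). Both lost it with upper-quartile scaling (0.0521 for DNAJA3 and 0.0875 for GRPEL1) and with library totals alone, where their log2 fold changes were 0.51 (edgeR adjusted p 0.108) and 0.17 (0.347). The mitochondrial list held 2 rises under either of these scalings, without 7A replicate 1 or without DMSO replicate 2, and 7 after the GC and length correction.

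Of 7 endoplasmic reticulum genes 3 rose and 2 fell (median 0.43). HYOU1, the HSP110 of that compartment, had 568 and 555 CPM with 7A, against 315 and 277 CPM with DMSO, and rose by 0.92 ± 0.13 (edgeR adjusted p 0.00162). DNAJB11 had 157 and 164 CPM with 7A, against 81.3 and 86.8 CPM with DMSO, and rose by 0.93 ± 0.12. Both are co-factors of the HSP70 of the endoplasmic reticulum, and their groups did not overlap. DNAJB9, another J-protein there, rose by 0.64 ± 0.14, a call lost without DMSO replicate 2 (0.0795) and with library totals alone (0.37, 0.0611). DNAJC3 fell by 0.64 ± 0.19 on the log2 scale, a call lost without 7A replicate 2 (0.0603), DMSO replicate 1 (0.0958) or DMSO replicate 2 (0.0929), and after the GC and length correction (-0.31). No fall of this list was called after that correction, without 7A replicate 2 or without DMSO replicate 2.

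**Figure D5:**
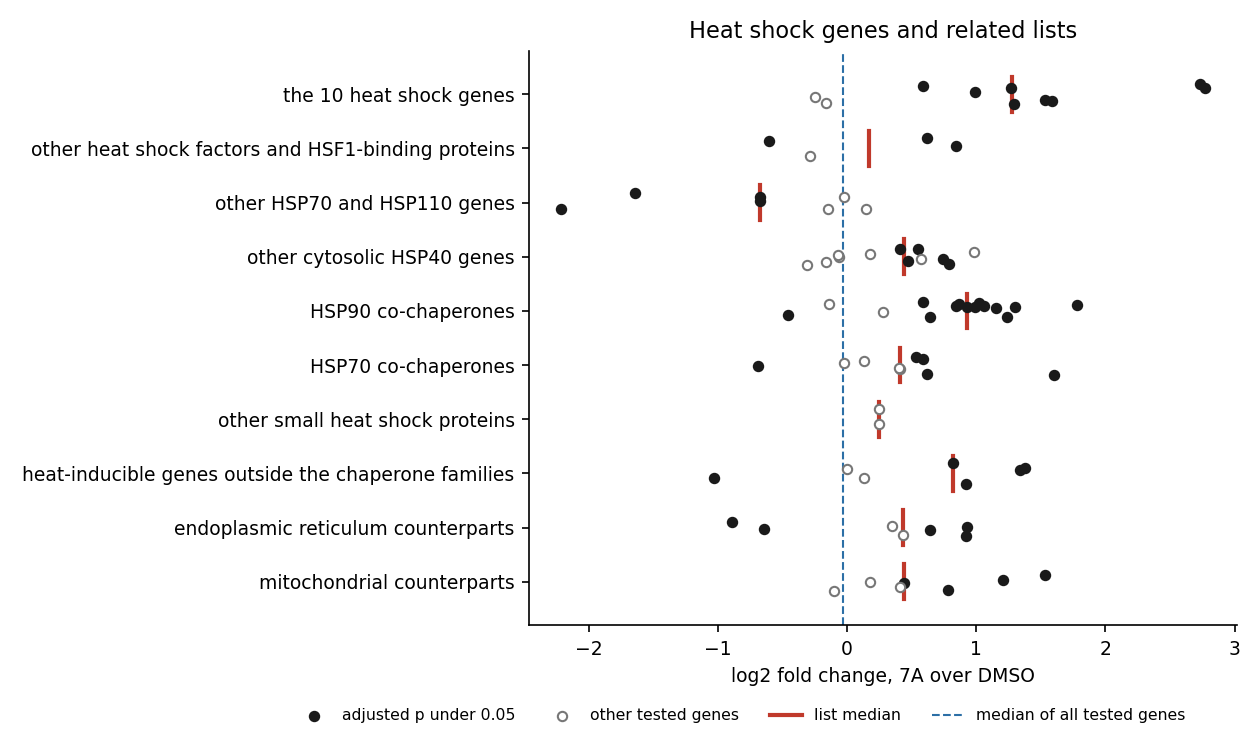
Log2 fold change, 7A over DMSO, of each tested gene of the 10 heat shock genes and of the 9 related lists, 1 row per list; filled points had an edgeR adjusted p under 0.05, open points did not, the red bar is the list median and the dashed line the median of all tested genes at -0.03. The heat shock genes have the highest median at 1.28, the HSP90 co-chaperones follow at 0.93, and the other HSP70 and HSP110 genes lie lowest at -0.67.

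The genes whose profile over the 4 libraries came closest to that of HSPA1A and HSPA1B summed were found among 9671 genes that averaged 10 CPM or more, by the Euclidean distance between centred log2 CPM values. GDF15, a secreted stress cytokine, was nearest at a distance of 0.10, with 792 and 980 CPM in the 7A libraries, against 147 and 134 CPM in the DMSO libraries. HIST2H2AA4 at 0.199 and HIST2H2AA3 at 0.208, near-identical histone H2A genes between which the counter may have split reads, came next, followed by ACP7 at 0.216 and CCN1 at 0.241. CCN1, a matricellular protein gene, had 122 and 138 CPM with 7A, against 24.5 and 19.3 CPM with DMSO. With 4 libraries in 2 groups, a small distance says little beyond a rise of about the same size.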

How the data were processed

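The data are RNA-seq libraries of HCT116 cells made from total RNA with an mRNA library kit, per the labels' protocols, with 2 libraries per group. The authors deposited 1 table of counts of reads per gene, not normalized, as its whole numbers and differing column sums show. Builds named together in the submitters' processing notes are hg38, mm10 and GRCm38; the sources used here do not name the aligner, counter, annotation or strandedness. Of 20263 Ensembl identifiers, all of them human, 20224 had an entry in GENCODE 29 (GRCh38), which gave symbols, coordinates, GC content and lengths. No sample column was left unused.

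Counts were fitted with edgeR 4.0.16 in R 4.3.3 (filterByExpr with a minimum count of 10, TMM, robust quasi-likelihood F test, Benjamini-Hochberg over 14026 genes, threshold 0.05). The fit was first tested on simulated data in which few genes changed, so that test does not cover a series where many do. A standard error is the size of the log2 fold change divided by the root of F, and the common biological coefficient of variation came to 17.7%. HSPA1A and HSPA1B were also fitted as 1 row of summed counts. Levels between genes are per length of merged exons. Ratios within libraries were compared by two-sided exact permutation. Transcripts were split into 100-base windows to count those shared with another gene. The motif search used the RefSeq promoter windows of GRCh38.p14.

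Alternatives were RLE, upper-quartile and library-total scaling, DESeq2 1.42.0, limma-voom (limma 3.58.1), no filter, a replicate block, a GC and length correction (per-library splines with 5 degrees of freedom) with and without the block, each library left out, and a threshold of 0.01. The ratio per length was added after seeing the data. The members and lists were chosen with earlier results of these data known. From each list the text names up to 4 tested genes with the smallest adjusted p, with each called direction included, and the 5 nearest profiles. A result that this rule would name is not reported here. The genes overlapping a member and HSPA6 fall outside this rule and were chosen after their values were seen.

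Within groups, replicates differed by more than counting noise: chi-square over its degrees of freedom was 81.0 in 7A and 37.6 in DMSO. Of genes with 1 to 20 counts, 64.9% and 64.1% in the 7A libraries and 63.9% and 64.7% in the DMSO libraries had an even count, so counts may not be independent fragments. A count of 0 allows up to 3 counts, which covers counting error only at 95% confidence.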

Additional observations from a re-analysis of the deposited data

How the results depend on the processing

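HSF1, HSPA1A, HSPA1B, their sum, HSPA8, HSPH1, DNAJB1 and HSPB1 rose in all 13 alternative fits and at a threshold of 0.01. BAG3 alone of the 8 lost its call, with library totals alone (log2 fold change 0.32), with the replicate block and GC and length correction together (0.37) and at a threshold of 0.01 (0.59, edgeR adjusted p 0.0146); leaving out 1 library gave 0.42 to 0.77. The number of members that rose was then 7. HSP90AA1 and HSP90AB1 passed in none of the 13. HSP90AA1 turned to 0.02 with the GC and length correction, with or without the block, and ranged from -0.59 to 0.15 with 1 library left out; HSP90AB1 ranged from -0.33 to 0.06. The cause of these turns was not tested.

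The replicate numbers are not shown to mark shared cultures, and same-numbered libraries did not deviate together (r = -0.05 over 14026 genes). With the replicate block 8 members rose, and 3029 of all genes rose and 3187 fell. TECR (edgeR adjusted p 0.0569), GRPEL1 (0.0743), DNAJC2 (0.0513) and FKBP5 (0.0782) lost their calls with the block, besides the losses given above. With the block and the GC and length correction 7 members rose, and HSF2 (edgeR adjusted p 0.0675), BAG5 (0.0887) and DNAJC3 (0.0836) also lost theirs. Over the 9 lists the number that rose was 22 to 32 with 1 library left out, and the number that fell was 2 to 9, 6 with the GC and length correction and 3 with the block added, while library totals alone gave 23 and 13. Over all genes the number that rose was 1951 with library totals alone and 1925 to 3054 with 1 library left out, and the number that fell was 2142 with the block and the GC and length correction and 1939 to 2619 with 1 library left out. Where a group keeps 1 library, that library is assumed to vary like the other group. The pair-to-HSPA8 log2 difference was 1.44 with HSPA1A alone, 1.48 with HSPA1B alone and 1.47 per length. No ratio was taken after the GC and length correction, in which the summed pair rose by 2.48 and HSPA8 by 1.45. With 2 libraries per group, the width of the HSP90AA1 interval and counts such as those of HSPA6 limit what can be seen.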
